A study of Mus musculus with 9 samples.

Results

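The 10 genes described here encode large chromatin regulators. They comprise the KMT2 family (Kmt2a, Kmt2b, Kmt2c, Kmt2d and Kmt2e), 4 proteins with an AT-rich interaction domain (Arid1a, Arid1b, Arid2 and Arid4b) and the methyltransferase gene Setd2. They were taken by symbol from a deposited table of 21936 mouse genes, and all 10 were among the 12557 genes with enough reads to be tested. They were chosen by their read counts in all 9 libraries, read against gene span, the end coordinate minus the start coordinate with introns included. Their levels and fold changes against NaCl are therefore given as a description, with errors and without a test.

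KMT2A, KMT2B, KMT2C and KMT2D work on histone H3 at lysine 4, a mark of promoters and enhancers, and share a core of WDR5, RBBP5, ASH2L and DPY30. KMT2A and KMT2B act mostly at promoters, KMT2C and KMT2D place monomethylation at enhancers, and KMT2E has a SET domain with no established methyltransferase activity. ARID1A and ARID1B are alternative subunits of the BAF form of the SWI/SNF nucleosome remodeller, ARID2 belongs to its PBAF form, ARID4B belongs to SIN3-HDAC corepressors, and SETD2 trimethylates histone H3 at lysine 36 behind elongating RNA polymerase II. In liver, ARID1A, ARID1B, ARID2, KMT2C, KMT2D and SETD2 are known as genes often altered in hepatocellular carcinoma.

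Livers of wild-type (WT) mice were collected 2 h after an intraperitoneal injection, and poly(A) RNA was sequenced. There were 3 groups of 3 libraries: NaCl, retrorsine at 25 mg/kg and retrorsine at 50 mg/kg. Retrorsine is a pyrrolizidine alkaloid, a toxin of plants that becomes reactive through oxidation by liver P450 enzymes. No strain, sex or age is labelled, nor whether each library stands for its own mouse, so p-values measure the spread between these libraries, which may in part be technical. Both doses were compared with the same 3 NaCl libraries.

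Depth was between 15241261 and 18691736 counted reads per library. The summed level of 8 hepatocyte markers was 117892 to 140629 CPM (counts scaled to a common library size) with NaCl, 124357 to 157964 CPM at 25 mg/kg and 121644 to 137792 CPM at 50 mg/kg, and none of the 8 was at 0 in any library. Atf3, the stress factor named in the study's title, had 7.02 to 42.8 CPM with NaCl, 143 to 193 CPM at 25 mg/kg and 193 to 527 CPM at 50 mg/kg. The 8 pancreatic acinar markers were spread unevenly over the groups. Their sum was 188 to 4980 CPM with NaCl, 0.171 to 1.30 CPM at 25 mg/kg, where 1 to 5 of the 8 were at 0, and 0.608 to 276 CPM at 50 mg/kg. The highest values of their groups were in NaCl replicate 1 and 50 mg/kg replicate 2, and main results are also given without these 2 libraries. The 6 lymphocyte markers summed to 0.960 to 1.26 CPM with NaCl, 1.82 to 3.79 CPM at 25 mg/kg and 6.00 to 38.3 CPM at 50 mg/kg. Erythroid markers (3 genes) summed to 47.7 to 121 CPM with NaCl, 125 to 205 CPM at 25 mg/kg and 65.7 to 301 CPM at 50 mg/kg. Neutrophil markers (5 genes) summed to 7.83 to 21.2 CPM with NaCl, 2.26 to 9.96 CPM at 25 mg/kg and 7.21 to 169 CPM at 50 mg/kg, with the highest value in replicate 3. Kupffer markers (7 genes) summed to 304 to 396.2 CPM with NaCl. At 25 mg/kg their sum was 396.1 to 547 CPM, just reaching the NaCl range, and at 50 mg/kg 251 to 449 CPM. The sums of endothelial, stellate and cholangiocyte markers overlapped between each dose and NaCl. The part of these markers in the results was not tested. In RNA from whole liver, fewer cells of a type and less RNA per cell cannot be told apart.

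Arid1b and Kmt2c, with the longest spans of the 10 genes, stood far below NaCl at both doses, and their shorter paralogs Arid1a and Kmt2d did not. Arid1b was at 17.8% of its NaCl mean at 25 mg/kg and 23.4% at 50 mg/kg, and Kmt2c was at 28.5% at 25 mg/kg and 25.5% at 50 mg/kg. Of the 10 genes, 2 were past the threshold (edgeR quasi-likelihood test, adjusted p under 0.05) as lower at 25 mg/kg, Arid1b and Kmt2c, and none as higher. Over all genes tested, 7.56% were called lower and 5.9% higher at this dose. At 50 mg/kg 3 genes were lower, with Arid4b added, and none was higher, where 8.01% of all genes were called lower and 7.09% higher. Unadjusted p-values under 0.05 were found for 2 of the 10 genes at 25 mg/kg and 5 at 50 mg/kg (3590 and 3919 of the 12557 genes tested). DESeq2 called 2 and 4 of the 10, all lower. Over all genes, no alternative, DESeq2 among them, called more than 2404 at 25 mg/kg or 2630 at 50 mg/kg, in either direction. The main fit tested 12557 genes. Of all genes called at 50 mg/kg, 46.9% were higher, and 35.5% when only library totals were used for scaling. These calls come from the contrasts in view when the genes were chosen, so nothing is read from them. The same holds where a call of one of the 10 genes is kept, lost or gained under an alternative setting, since the same libraries are refitted.

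In TMM-scaled CPM the groups did not overlap for 4 of the 10 genes at 25 mg/kg, where 36.5% of all genes tested did not overlap. These were Arid1b and Kmt2c on the lower side and Kmt2b and Kmt2e on the higher. At 50 mg/kg 5 genes had no overlap with NaCl against 35% of all genes: Arid1b, Kmt2c, Arid2 and Arid4b were lower and Kmt2b was higher. Scaled by exon length and library total instead (FPKM), Kmt2b overlapped with NaCl at both doses. The median log2 fold change of the 10 genes was -0.23 at 25 mg/kg and -0.50 at 50 mg/kg, where the medians of all genes tested were 0.01 and 0.00. In each comparison 8 of the 10 values were below 0, and the exceptions were Kmt2b and Kmt2e.

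**Figure D1:**
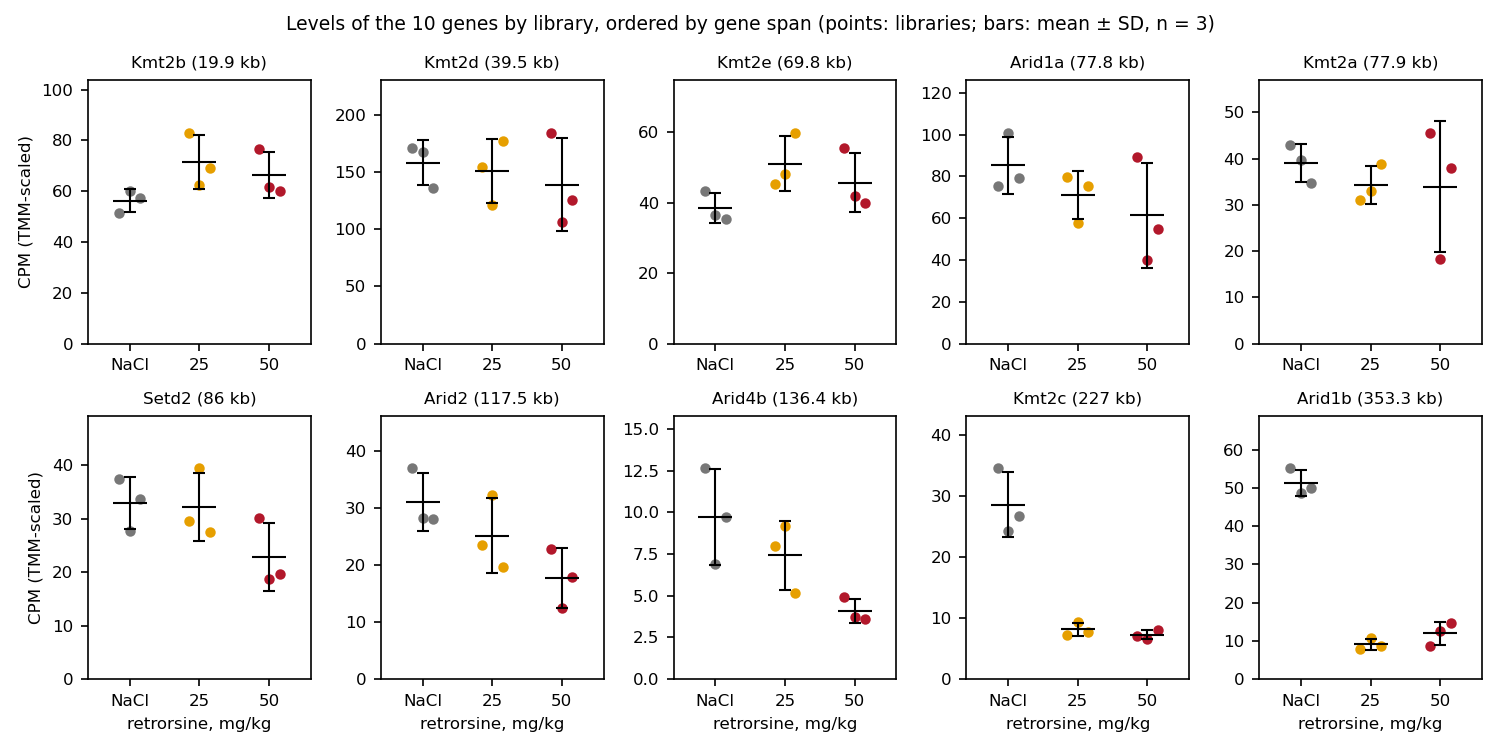
Level of each of the 10 genes in every library, in CPM on TMM-scaled library sizes (vertical axes, each from 0), with NaCl, 25 and 50 mg/kg from left to right and genes ordered by span. Points are libraries and bars the mean ± SD (n = 3). In Kmt2c and Arid1b all 6 retrorsine libraries lie below all 3 NaCl libraries, whereas in Arid1a, Kmt2a and Kmt2d the groups overlap at both doses.

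The BAF subunit genes were the first pair of paralogs with different responses. Arid1b (ENSMUSG00000069729, plus strand, chr17:4994332-5347656 on GRCm38) spans 353.3 kb with 20 exons in its principal coding transcript, and its intron 4 alone is 115.8 kb. Its exons cover 3.57% of the span. Arid1b had 7.97, 10.8 and 8.61 CPM at 25 mg/kg, against 55.1, 48.8 and 50.1 CPM with NaCl. With 50 mg/kg it had 8.63, 12.7 and 14.7 CPM. The highest retrorsine library was thus far below the lowest NaCl library. For Arid1b the log2 fold change was -2.49 (SE 0.22, 95% interval -2.98 to -2.01) at 25 mg/kg and -2.10 (SE 0.21, -2.58 to -1.62) at 50 mg/kg. In raw reads Arid1b had 820, 965 and 997 with NaCl, 140, 162 and 159 at 25 mg/kg and 142, 195 and 215 at 50 mg/kg. Without NaCl replicate 1 and 50 mg/kg replicate 2 the log2 fold change was -2.44 at 25 mg/kg and -2.08 at 50 mg/kg.

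Arid1a (ENSMUSG00000007880, minus strand, chr4:133679008-133756769) also has 20 exons and a coding length close to that of Arid1b, 6849 against 6732 nucleotides. Its span is 77.8 kb. Arid1a had 79.8, 57.9 and 75.2 CPM at 25 mg/kg and 75.6, 101 and 79.4 CPM with NaCl. The 50 mg/kg values were 89.2, 40.1 and 54.7 CPM, so that replicate 1 was within the NaCl range and the other two were below it. On the log2 scale the fold change was -0.27 (SE 0.28) at 25 mg/kg and -0.48 (SE 0.28, 95% interval -1.09 to 0.14) at 50 mg/kg. Without 50 mg/kg replicate 1 the 50 mg/kg value was -0.84 and Arid1a was called lower, and over the other 18 alternatives, which did not call it, the value was -0.25 to -0.56.

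Arid2 (ENSMUSG00000033237, plus strand, chr15:96287518-96404992, 117.5 kb), the PBAF subunit, had 23.5, 32.4 and 19.6 CPM at 25 mg/kg and 37.0, 28.2 and 28.1 CPM with NaCl. The 50 mg/kg libraries had 22.9, 12.4 and 17.99 CPM, all below the NaCl libraries. The log2 fold change was -0.30 (SE 0.26) at 25 mg/kg and -0.81 (SE 0.26, 95% interval -1.39 to -0.22) at 50 mg/kg. Arid2 at 50 mg/kg was not called in the fit over all genes, and it was called with scaling by library totals, with DESeq2 and without 50 mg/kg replicate 1, where the log2 fold change was -0.88, -0.79 and -1.02.

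Among the KMT2 genes the same contrast was seen between the enhancer pair. Kmt2c (ENSMUSG00000038056, minus strand, chr5:25271798-25498783) spans 227.0 kb, of which intron 1 takes 54.5 kb. Kmt2d (ENSMUSG00000048154, minus strand, chr15:98831669-98871204) packs 55 exons and a coding length of 16764 nucleotides, against 14712 in Kmt2c, into 39.5 kb. Of the 10 genes, 7 had a RefSeq promoter entry on GRCm38.p6 (8 entries, 2 of them of Arid1a). Kmt2b, Kmt2e and Arid2 had none. The 250 bases before the annotated start of Kmt2c and of Kmt2d are shown because the paralogs differed widely in fold change after retrorsine. Capitals mark every CG dinucleotide.
Kmt2c, chr5:25498784-25499033, minus strand: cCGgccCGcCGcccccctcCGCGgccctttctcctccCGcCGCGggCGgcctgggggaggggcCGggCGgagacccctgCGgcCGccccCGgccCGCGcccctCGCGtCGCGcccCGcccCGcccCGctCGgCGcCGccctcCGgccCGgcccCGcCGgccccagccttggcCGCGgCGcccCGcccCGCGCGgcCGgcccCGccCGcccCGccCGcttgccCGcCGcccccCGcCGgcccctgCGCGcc
Kmt2d, chr15:98871206-98871455, minus strand: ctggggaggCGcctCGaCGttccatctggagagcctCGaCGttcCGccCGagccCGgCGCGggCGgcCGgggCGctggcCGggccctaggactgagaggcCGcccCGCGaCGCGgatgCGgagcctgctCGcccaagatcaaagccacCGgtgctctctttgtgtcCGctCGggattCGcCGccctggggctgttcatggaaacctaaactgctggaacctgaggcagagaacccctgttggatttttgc
The Kmt2c stretch holds 48 CG and is 91.6% G or C, and the Kmt2d stretch holds 26 CG and is 67.6% G or C. Counted from 250 bases before to 50 after the start, 7 of the 8 entries lay above the upper quartile of 20 CG among 32851 entries, whose median was 7. Arid4b, with 14 CG, was the exception. At least 1 CG, read on either strand alike, was present in 94.6% of all entries. The CG-rich starts were thus shared by genes with large and with small fold changes, and no factor's binding follows from these letters.

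Kmt2c had 7.28, 9.31 and 7.80 CPM at 25 mg/kg, against 34.6, 24.4 and 26.8 CPM with NaCl. With 50 mg/kg it had 7.11, 6.63 and 8.11 CPM. The 2 doses gave almost the same low level, and neither overlapped with NaCl. The Kmt2c log2 fold change was -1.81 (SE 0.19, 95% interval -2.25 to -1.38) at 25 mg/kg and -1.97 (SE 0.20, -2.41 to -1.53) at 50 mg/kg. Without NaCl replicate 1 and 50 mg/kg replicate 2 it was -1.65 at 25 mg/kg and -1.74 at 50 mg/kg.

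Kmt2d had 154, 122 and 178 CPM at 25 mg/kg and 171, 168 and 136 CPM with NaCl. The 50 mg/kg values were 184.5, 107 and 125 CPM, with replicate 1 above every NaCl library and the other two below. The Kmt2d log2 fold change was -0.07 (SE 0.23, 95% interval -0.57 to 0.44) at 25 mg/kg and -0.19 (SE 0.23, -0.69 to 0.32) at 50 mg/kg. A log2 change of the size seen in Kmt2c lies outside both intervals, and smaller changes in either direction lie within them.

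The promoter-type enzymes Kmt2a and Kmt2b differed less. Kmt2a (ENSMUSG00000002028, minus strand, chr9:44803355-44881296, 77.9 kb) had 31.0, 33.0 and 38.9 CPM at 25 mg/kg and 43.0, 39.6 and 34.7 CPM with NaCl. With 50 mg/kg it had 45.6, 18.3 and 38.0 CPM, so that replicate 2 lay far below the other two. On the log2 scale the fold change was -0.19 (SE 0.29) at 25 mg/kg and -0.20 (SE 0.29) at 50 mg/kg. The 50 mg/kg value was 0.10 without 50 mg/kg replicate 2. Kmt2b (ENSMUSG00000006307, minus strand, chr7:30568858-30588726) is the shortest of the 10 genes at 19.9 kb. It had 51.2, 60.17 and 57.3 CPM with NaCl, 83.0, 62.4 and 69.2 CPM at 25 mg/kg and 76.7, 61.7 and 60.24 CPM at 50 mg/kg. In TMM-scaled CPM all retrorsine libraries thus stood above the NaCl libraries, by a small margin at 50 mg/kg. In FPKM they overlapped with NaCl at both doses. The FPKM range was 4.95 to 6.71 with NaCl, 6.41 to 8.68 at 25 mg/kg and 5.69 to 7.96 at 50 mg/kg. The log2 fold change of Kmt2b was 0.35 (SE 0.17, 95% interval -0.02 to 0.72) at 25 mg/kg and 0.24 (SE 0.17, -0.14 to 0.61) at 50 mg/kg.

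Kmt2e (ENSMUSG00000029004, plus strand, chr5:23434441-23504235, 69.8 kb) had 45.2, 48.1 and 59.9 CPM at 25 mg/kg and 43.4, 36.6 and 35.4 CPM with NaCl. Its 50 mg/kg levels were 55.5, 41.8 and 39.9 CPM, of which replicate 2 and replicate 3 were inside the NaCl range. The log2 fold change was 0.41 (SE 0.18, 95% interval -0.0012 to 0.82) at 25 mg/kg and 0.25 (SE 0.18, -0.16 to 0.66) at 50 mg/kg. Part of its span overlaps Srpk2, and since no strand setting of the counting is given, reads of overlapping genes cannot be told apart.

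Arid4b (ENSMUSG00000039219, plus strand, chr13:14063232-14199603, 136.4 kb), the SIN3-HDAC subunit, was the least abundant of the 10 genes with NaCl. It had 7.97, 9.17 and 5.14 CPM at 25 mg/kg and 12.6, 6.87 and 9.69 CPM with NaCl. Its 50 mg/kg levels were 4.92, 3.70 and 3.61 CPM, below every NaCl library and every 25 mg/kg library. The Arid4b log2 fold change was -0.39 (SE 0.30, 95% interval -1.06 to 0.28) at 25 mg/kg and -1.25 (SE 0.31, -1.93 to -0.57) at 50 mg/kg. The call at 50 mg/kg rests on few reads, 53 to 81 per library. It was lost when NaCl library 1 (log2 fold change -1.02), NaCl library 3 (-1.25), 50 mg/kg library 2 (-1.18) or 50 mg/kg library 3 (-1.17) was dropped, library numbers being replicate numbers, and when NaCl library 1 and 50 mg/kg library 2 were dropped together (-0.95). Arid4b shares part of its span with Ggps1.

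Setd2 (ENSMUSG00000044791, plus strand, chr9:110532597-110618633, 86.0 kb) had 29.5, 39.4 and 27.5 CPM at 25 mg/kg and 37.4, 27.6 and 33.7 CPM with NaCl. Levels at 50 mg/kg were 30.2, 18.8 and 19.6 CPM, with replicate 1 again inside the NaCl range. On the log2 scale the fold change was -0.04 (SE 0.23) at 25 mg/kg and -0.52 (SE 0.23, 95% interval -1.04 to -0.01) at 50 mg/kg. In all of the 10 genes other than Kmt2c and Arid1b, 50 mg/kg replicate 1 was the highest library of its group.

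The 10 genes were then set against all genes of like span, since long genes as a class were lower after retrorsine. Among the 558 genes tested that span over 200 kb, the median log2 fold change was -1.004 at 25 mg/kg and -0.99 at 50 mg/kg, and 41.2% were called lower at 25 mg/kg and 43.2% at 50 mg/kg. Among the 3009 genes under 10 kb the median was 0.24 at 25 mg/kg, with 1.76% called lower, and 0.31 at 50 mg/kg, with 0.897% called lower. The classes between, 10 to 30 kb, 30 to 100 kb and 100 to 200 kb, had medians of 0.13, -0.15 and -0.61 at 25 mg/kg, with 2.07%, 7.75% and 28% called lower. For 50 mg/kg they were 0.14, -0.23 and -0.70, with 1.53%, 9% and 32.7% called lower. Median fold change thus decreased step by step with span at both doses. In each of the 6 retrorsine libraries the class over 200 kb was below the NaCl mean, by a median log2 difference of -0.72 to -1.16 at 25 mg/kg and of -0.89 to -1.06 at 50 mg/kg, and the 3 NaCl libraries lay between -0.10 and 0.08. Across the 12557 genes the rank correlation of fold change with span was -0.44 at 25 mg/kg and -0.52 at 50 mg/kg. With summed exon length, which goes along with span, it was -0.31 at 25 mg/kg and -0.38 at 50 mg/kg. Genes share libraries and are no replicates, so these are descriptions.

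Each gene was also placed within its own class by percentile, counted from the lowest fold change. Arid1b was at percentile 4.84 of the class over 200 kb at 25 mg/kg and 7.89 at 50 mg/kg. Kmt2c was at percentile 17.03 at 25 mg/kg and 10.4 at 50 mg/kg. Arid4b was at percentile 66.4 of genes of 100 to 200 kb at 25 mg/kg and 17.3 at 50 mg/kg, and Arid2 was at 71.5 at 25 mg/kg and 41.8 at 50 mg/kg. In the class of 30 to 100 kb, Kmt2e lay at percentile 85.6 at 25 mg/kg and 83.0 at 50 mg/kg. Kmt2a, Kmt2d, Arid1a and Setd2 of the same class lay between 39.3 and 60.0 at 25 mg/kg and between 27.2 and 53.5 at 50 mg/kg. Kmt2b was at percentile 69.6 of genes of 10 to 30 kb at 25 mg/kg and 59.3 at 50 mg/kg. Genes of one span class thus held different places in it.

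**Figure D2:**
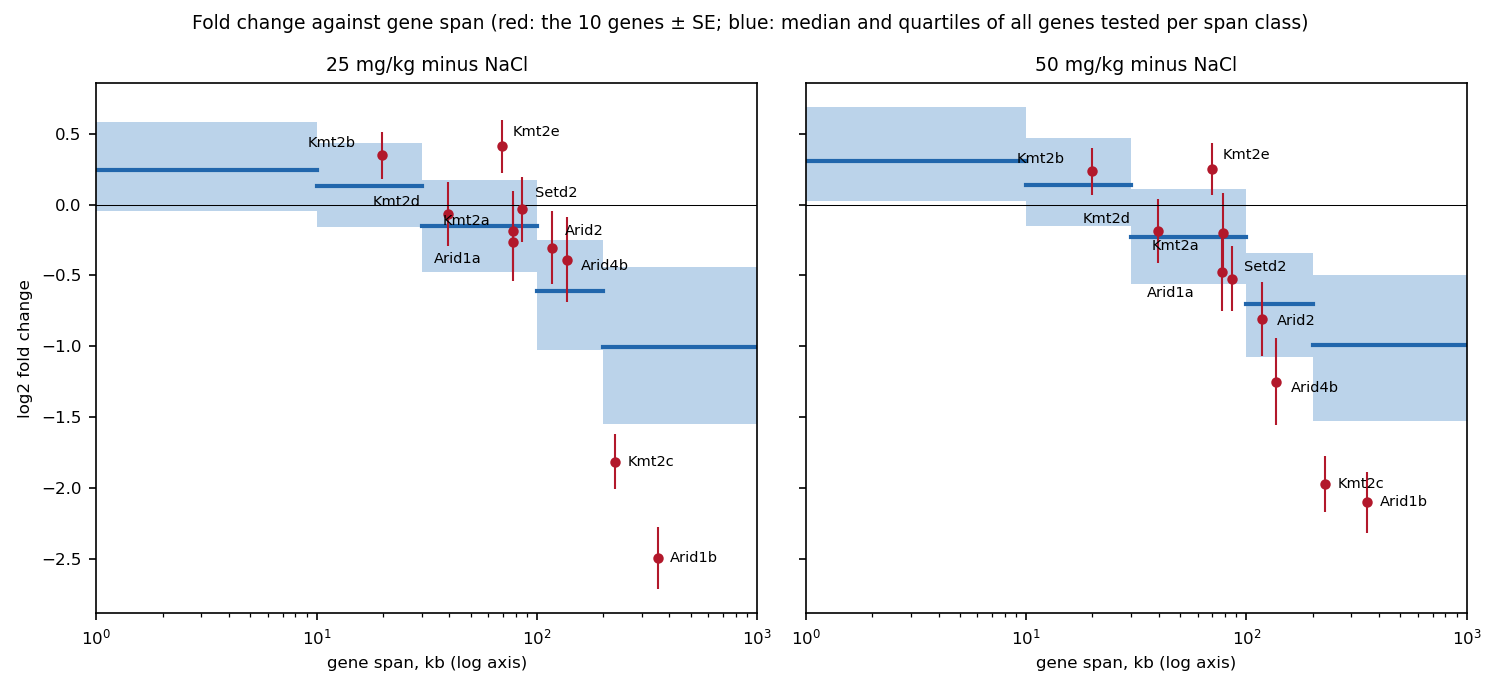
Log2 fold change of retrorsine over NaCl (vertical axis) against gene span in kb (horizontal log axis), 25 mg/kg on the left and 50 mg/kg on the right. Red points are the 10 genes with their SE, and blue bars are the median and quartiles of all genes tested in each span class; Arid1b and Kmt2c lie below the lower quartile of the class over 200 kb in both panels.

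The ratio of 2 paralogs inside a library does not depend on scaling between libraries. The longest stretch of coding sequence that each pair shares is printed here because reads that match both genes could be counted for either. These come from GENCODE M21 transcripts, and the whole of each stretch is identical in both genes.
Arid1b and Arid1a, 26 bases: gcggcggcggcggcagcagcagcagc
Kmt2c and Kmt2d, 37 bases: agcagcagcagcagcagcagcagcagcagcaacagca
Kmt2a and Kmt2b, 20 bases: ccctgcaactgtggcgccaa
The first stretch is a GCG repeat that passes into a GCA repeat, the second is a CAG repeat interrupted by a single CAA, and the third holds no repeat. No 50-base word of any transcript was shared within a pair.

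The log2 ratio of Arid1b to Arid1a reads was -3.33, -2.43 and -3.13 at 25 mg/kg and -0.46, -1.05 and -0.67 with NaCl. With 50 mg/kg it was -3.37, -1.66 and -1.90. No retrorsine library overlapped with NaCl, although the 50 mg/kg libraries were widely spread (mean -2.31 ± 0.93, SD, n = 3). As a ratio of FPKM (reads scaled by exon length and library total), which allows for exon length, Arid1b to Arid1a was 0.56 ± 0.11 with NaCl, 0.12 ± 0.04 at 25 mg/kg and 0.21 ± 0.11 at 50 mg/kg (SD, n = 3 each).

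The log2 ratio of Kmt2c to Kmt2d was -2.31, -2.79 and -2.34 with NaCl, -4.40, -3.71 and -4.51 at 25 mg/kg and -4.70, -4.01 and -3.95 at 50 mg/kg. Again no retrorsine library reached the NaCl range. On the FPKM scale the ratio was 0.18 ± 0.03 with NaCl, 0.055 ± 0.018 at 25 mg/kg and 0.054 ± 0.014 at 50 mg/kg (SD, n = 3 each). For Kmt2a over Kmt2b, whose spans differ too, the log2 ratio was -0.53 ± 0.24 with NaCl, -1.06 ± 0.32 at 25 mg/kg and -1.06 ± 0.61 at 50 mg/kg (SD, n = 3 each). The 25 mg/kg libraries, at -0.83 or lower, were just outside the NaCl range, whose lowest value was -0.72, and at 50 mg/kg the groups overlapped.

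**Figure D3:**
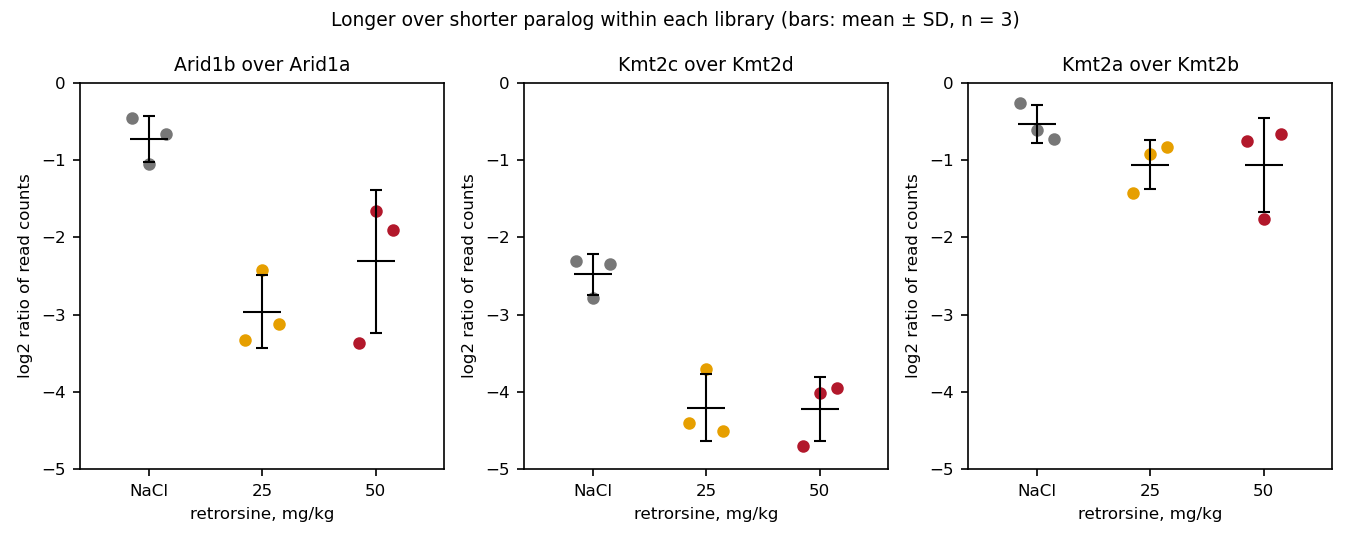
Log2 ratio of read counts of the longer over the shorter paralog (vertical axes, 1 panel per pair) in every library of NaCl, 25 and 50 mg/kg. Points are libraries and bars the mean ± SD (n = 3); for Arid1b over Arid1a and Kmt2c over Kmt2d all retrorsine points lie below all NaCl points, and for Kmt2a over Kmt2b the 50 mg/kg points overlap with NaCl.

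Levels of different genes were compared in FPKM, which allows for exon length. With NaCl the order was Kmt2d (8.08 FPKM), Arid1a (7.63), Kmt2b (6.01), Arid1b (4.14), Kmt2e (3.74), Setd2 (3.10), Arid2 (2.93), Kmt2a (2.38), Kmt2c (1.42) and Arid4b (0.577). The libraries of Kmt2d and Arid1a, of Arid1a and Kmt2b, and of Setd2 and Arid2 overlapped, and the other neighbours did not. At 25 mg/kg Kmt2d (7.76), Kmt2b (7.59), Arid1a (6.31) and Kmt2e (5.002) led, Setd2 (3.03), Arid2 (2.37) and Kmt2a (2.10) followed, and Arid1b (0.735), Arid4b (0.443) and Kmt2c (0.407) were last. Arid1b had rank 4 with NaCl and rank 8 at either dose. With 50 mg/kg the 4 leading genes were the same, at 6.74, 6.67, 5.17 and 4.24 FPKM, then came Setd2 (2.06), Kmt2a (1.96) and Arid2 (1.60), and Arid1b (0.910), Kmt2c (0.345) and Arid4b (0.233) ended the list. Neighbours that overlapped at both doses were Kmt2d with Kmt2b, Kmt2b with Arid1a, Arid1a with Kmt2e, and Arid2 with Kmt2a.

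Few genes differed between the doses. Between 50 mg/kg and 25 mg/kg none of the 10 genes was called, where 0.00796% of all genes tested were, namely Acacb alone. Unadjusted p-values under 0.05 were found for 1 of the 10 genes and for 1079 of the 12557 genes tested (edgeR quasi-likelihood test). DESeq2 called 71 genes, none of the 10 among them. Arid4b was the gene with no overlap between the doses, where 11.4% of all genes had none. Its log2 fold change was -0.86 (SE 0.31, 95% interval -1.54 to -0.18). For Kmt2c the value was -0.16 (SE 0.19, -0.59 to 0.27) and for Arid1b 0.39 (SE 0.21, -0.08 to 0.87). Arid2 (-0.50) and Setd2 (-0.49) had intervals of -1.08 to 0.08 and -1.002 to 0.02, and the other 5 genes lay between -0.21 and -0.01. With the exception of Arid4b each interval holds 0, which does not show an equal response to both doses.

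Genes with the profile most like the 10 genes were sought by correlation over the 9 libraries with the mean of the 10 scaled log2 CPM profiles. That mean profile was 0.26 to 0.71 with NaCl, 0.05 to 0.11 at 25 mg/kg, and 0.34, -1.27 and -0.68 in 50 mg/kg replicates 1, 2 and 3. The most alike genes were Spopl (r = 0.988), Cdk13 (0.970), Wnk1 (0.958), Dcbld1 (0.958), Prr14l (0.955), Ttll4 (0.954), Cramp1l (0.953) and Sp1 (0.951), all with spans of 30.3 to 114.7 kb. The 10 genes followed their mean to different degrees. Arid2 (0.879), Arid1a (0.870) and Setd2 (0.838) followed it closely, whereas Arid1b (0.397), Kmt2e (0.136) and Kmt2b (-0.04) did not. Each gene is itself part of that mean, which raises its r, so these values are descriptions.

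Partners and relatives of the 10 proteins were read from 7 gene lists of 119 genes, of which 111 were tested. At 25 mg/kg 4 rose (3.6%) and 20 fell (18%), where 5.9% of all genes rose and 7.56% fell. At 50 mg/kg 5 rose (4.5%) and 27 fell (24.3%), where 7.09% of all genes rose and 8.01% fell. The median log2 fold change of the listed genes was -0.09 at 25 mg/kg and -0.25 at 50 mg/kg. Among the 16 listed genes of 100 to 200 kb 8 fell at 25 mg/kg and 9 at 50 mg/kg, where 28% and 32.7% of all genes of that class fell. Of the 49 of 30 to 100 kb 11 fell at 25 mg/kg and 15 at 50 mg/kg, against 7.75% and 9% of their class. Of the 35 of 10 to 30 kb 1 fell at 25 mg/kg and 2 at 50 mg/kg, against 2.07% and 1.53%. The lists were chosen with earlier results of these data known, so these shares are descriptions, and the part of span in them was not tested. Where edgeR called no rise in a list, DESeq2 called 1 rise among the SWI/SNF subunits at 25 mg/kg. At 50 mg/kg it called 1 among the SIN3-HDAC genes and 1 among the demethylases, and 0 in the other cases. The longest listed genes, Dpf3 and Smyd3, both over 200 kb, were not called at either dose. The total of 24 at 25 mg/kg became 13 on dropping NaCl library 1, 12 on dropping NaCl library 3, 12 on dropping 25 mg/kg library 1 and 10 on dropping 25 mg/kg library 3. For 50 mg/kg the total of 32 became 19, 21 and 16 on dropping NaCl library 1, 2 and 3 in turn, and 19 on dropping 50 mg/kg library 2. With NaCl library 1 and 50 mg/kg library 2 dropped together the totals were 17 at 25 mg/kg and 12 at 50 mg/kg.

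**Figure D4:**
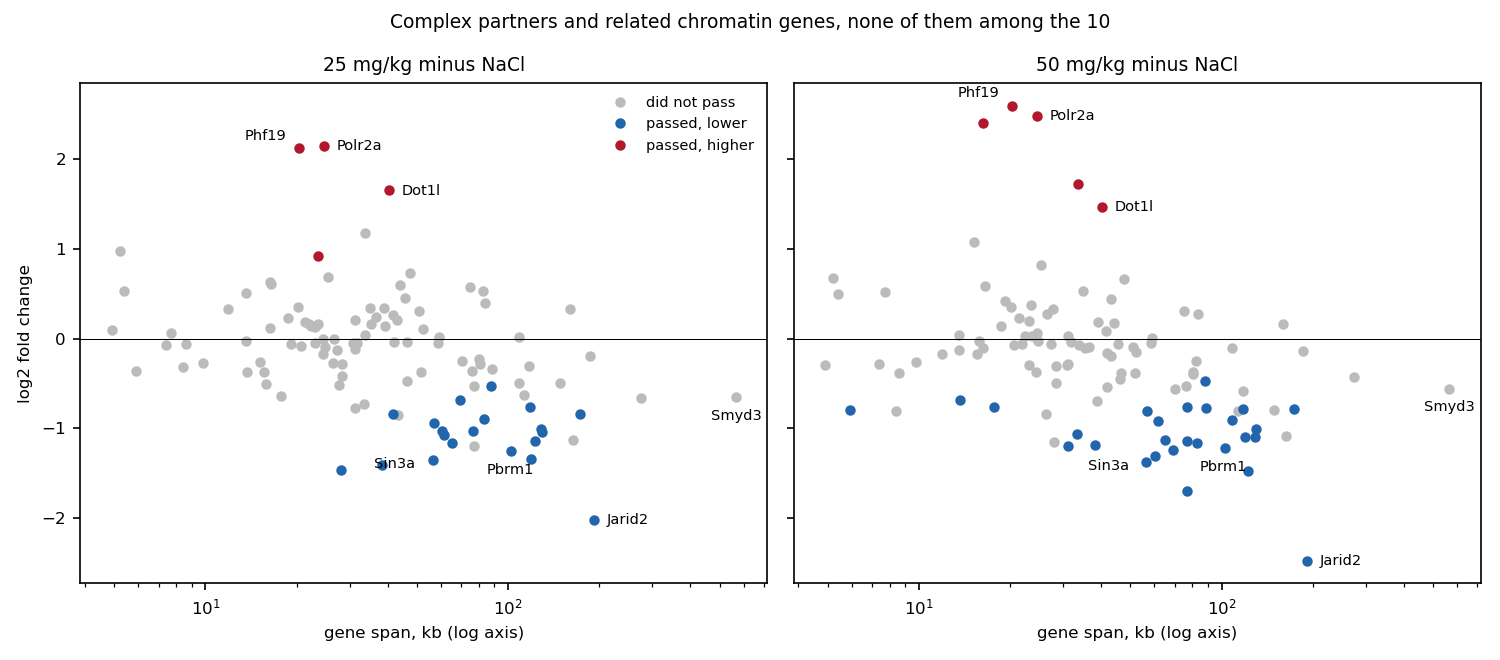
Log2 fold change of retrorsine over NaCl (vertical axis) against gene span in kb (horizontal log axis) for the 111 listed genes tested, 25 mg/kg on the left and 50 mg/kg on the right. Grey points did not pass the edgeR threshold, blue points fell and red points rose; of the points at 100 to 200 kb 8 are blue on the left and 9 on the right, and none is red.

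Of the 16 KMT2 complex partners tested, 1 rose (6.25%) and 2 fell (12.5%) at 25 mg/kg, where 5.9% and 7.56% of all genes did. At 50 mg/kg 3 fell (18.8%), against 8.01% of all genes. Bod1l, a subunit linked to SETD1A, fell at both doses, to 11.01 ± 1.06 CPM at 25 mg/kg and 12.0 ± 0.72 CPM at 50 mg/kg, against 21.1 ± 0.51 CPM with NaCl (SD, n = 3 each; edgeR adjusted p = 0.0054 and 0.0092). Ncoa6, a coactivator in the KMT2C and KMT2D complexes, fell as well (log2 fold change -0.90 at 25 mg/kg, adjusted p = 0.028, and -1.17 at 50 mg/kg, 0.011). Setd1a, a catalytic subunit of a related complex, rose at 25 mg/kg (0.92, SE 0.24, adjusted p = 0.032). Men1, which encodes the menin of the KMT2A and KMT2B complexes, fell at 50 mg/kg (-0.79, adjusted p = 0.025), and this call was lost on dropping any NaCl library or 50 mg/kg library 2 or 3. At 25 mg/kg the rise was lost on dropping any NaCl library or 25 mg/kg library 1 or 3. In the same comparison 1 fall was called on dropping NaCl library 1 or 3, or a 25 mg/kg library. With NaCl library 1 and 50 mg/kg library 2 dropped together, 0 were called at 50 mg/kg.

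Of the 23 SWI/SNF subunits tested, those of BAF and PBAF among them, 5 fell (21.7%) at 25 mg/kg, against 7.56% of all genes. At 50 mg/kg 7 fell (30.4%) and 1 rose (4.35%), where 8.01% and 7.09% of all genes did. Pbrm1, the polybromo subunit that defines PBAF together with Arid2, fell to 12.4 ± 2.04 CPM at 25 mg/kg and 12.6 ± 0.27 CPM at 50 mg/kg, against 29.5 ± 4.13 CPM with NaCl (SD, n = 3 each; adjusted p = 0.0030 and 0.0035). Smarcc1, a scaffold subunit, fell to 10.01 ± 3.43 CPM at 25 mg/kg and 7.94 ± 0.93 CPM at 50 mg/kg, against 22.0 ± 3.03 CPM with NaCl (adjusted p = 0.016 and 0.0061). Bicral had a log2 fold change of -1.03 at 25 mg/kg and -1.31 at 50 mg/kg, and Smarca2, an ATPase of the complex, of -0.84 at 25 mg/kg and -0.78 at 50 mg/kg. Chosen after their values were seen, the other ATPase gene Smarca4 fell at 25 mg/kg (-0.52, adjusted p = 0.036), and Smarcd3 was the gene that rose at 50 mg/kg (1.72, adjusted p = 0.042). At 50 mg/kg Smarca4 fell too (-0.47, adjusted p = 0.049). The Smarca4 call was lost in 9 of 19 alternatives at 25 mg/kg and in 14 at 50 mg/kg, and the Smarcd3 call in 11. In place of 5 falls at 25 mg/kg, 3 were called on dropping NaCl library 1, and 1 on dropping NaCl library 3 or 25 mg/kg library 1 or 3. In place of 8 changes at 50 mg/kg, 4 were called on dropping NaCl library 1 or 2, 3 on dropping NaCl library 3, and 5 on dropping 50 mg/kg library 1 or 2. On dropping 50 mg/kg library 3, 4 falls and 1 rise were called, and the rise was not that of Smarcd3.

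Of the 10 other ARID genes tested, 2 fell (20%) at 25 mg/kg, against 7.56% of all genes. At 50 mg/kg 1 fell (10%) and 1 rose (10%), near the 8.01% and 7.09% of all genes that did. Jarid2, an accessory subunit of Polycomb complex PRC2 with an ARID domain and a span of 192.2 kb, fell to 3.36 ± 0.82 CPM at 25 mg/kg and 2.45 ± 1.05 CPM at 50 mg/kg, against 13.6 ± 2.15 CPM with NaCl (SD, n = 3 each; adjusted p = 0.0058 and 0.0029). No alternative removed this call at either dose. Arid3a fell at 25 mg/kg (-1.46, adjusted p = 0.038) and lost the call on dropping any single library of the NaCl or 25 mg/kg group. Arid5a rose at 50 mg/kg (2.40, SE 0.58, adjusted p = 0.024) and lost the call on dropping NaCl library 2 or 3 or 50 mg/kg library 3.

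Of the 14 SIN3-HDAC genes tested, the partners of Arid4b, 1 fell (7.14%) at 25 mg/kg, near the 7.56% of all genes. At 50 mg/kg 3 fell (21.4%), against 8.01% of all genes. Sin3a, the scaffold of the corepressor, fell to 14.3 ± 2.34 CPM at 25 mg/kg and 14.1 ± 5.71 CPM at 50 mg/kg, against 36.4 ± 1.82 CPM with NaCl (SD, n = 3 each; adjusted p = 0.011 at both doses). Its call at 25 mg/kg was lost on dropping 25 mg/kg library 1 or 3. Sap130 (-0.77, adjusted p = 0.025) and Brms1l (-1.06, 0.035) fell at 50 mg/kg. In place of 3 falls at 50 mg/kg, 1 was called on dropping library 2 or 3 of NaCl or of 50 mg/kg, and 2 on dropping NaCl library 1.

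Of the 20 other histone lysine methyltransferases, 1 rose (5%) and 4 fell (20%) at 25 mg/kg, where 5.9% and 7.56% of all genes did. At 50 mg/kg 1 rose (5%) and 6 fell (30%), where 7.09% and 8.01% of all genes did. The one that rose was Dot1l, the histone H3 lysine 79 methyltransferase, at 254 ± 80.7 CPM with 25 mg/kg and 223 ± 54.2 CPM with 50 mg/kg, against 80.9 ± 8.32 CPM with NaCl (SD, n = 3 each; adjusted p = 0.0054 and 0.0082). Ehmt1, a histone H3 lysine 9 methyltransferase, had a log2 fold change of -1.03 at 25 mg/kg (adjusted p = 0.0067) and -1.01 at 50 mg/kg (0.0075). Ash1l, which like Setd2 acts on lysine 36, had -1.01 at 25 mg/kg (0.022) and -1.09 at 50 mg/kg (0.015). Ezh2, the catalytic subunit of PRC2, fell at 25 mg/kg (-1.16, 0.034) and at 50 mg/kg (-1.13, 0.035). The Ezh2 call was lost in 7 of 19 alternatives at each dose. Nsd1 fell at 50 mg/kg (-0.90, 0.031). The remaining fall at 25 mg/kg was Nsd3 (-0.76, 0.044), named after its value was seen, which 12 of 19 alternatives did not call. Nsd3 fell at 50 mg/kg as well (-0.78, 0.038), where 8 of 19 alternatives did not call it. The falls at 25 mg/kg numbered 1 on dropping library 1 or 3 of NaCl or of 25 mg/kg. For 50 mg/kg they numbered 2 on dropping NaCl library 1 or 3 or 50 mg/kg library 2, and 3 on dropping 50 mg/kg library 3.

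Of the 15 histone lysine demethylases, 5 fell (33.3%) at 25 mg/kg and 4 (26.7%) at 50 mg/kg, and none rose by edgeR. Of all genes, 7.56% fell at 25 mg/kg and 8.01% at 50 mg/kg. Unadjusted p-values under 0.05 were found for 8 at 25 mg/kg and 9 at 50 mg/kg. Kdm2b, a demethylase with a CpG-binding domain, had a log2 fold change of -1.34 at 25 mg/kg (adjusted p = 0.0066) and -1.10 at 50 mg/kg (0.013). Kdm4b had -1.03 at 25 mg/kg (0.011) and -1.14 at 50 mg/kg (0.0073), and Kdm3b -1.07 (0.021) and -0.92 (0.033) at the same doses. For Kdm3b at 50 mg/kg the call was lost in 8 of 19 alternatives, among them the drop of any NaCl library or of 50 mg/kg library 1 or 2. Kdm1b fell at 25 mg/kg (-0.84, 0.014). Phf2, a demethylase of histone H3 lysine 9, had -0.69 at 25 mg/kg (0.030) and -1.24 at 50 mg/kg (0.0036). In place of 5 falls at 25 mg/kg, 2 were called on dropping NaCl library 1 or 25 mg/kg library 3, and 3 on dropping NaCl library 3 or 25 mg/kg library 1. With NaCl library 1 and 50 mg/kg library 2 dropped together, 1 was called at 50 mg/kg.

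Of the 13 readers of lysine 36 methylation and SETD2 partners, 2 rose (15.4%) at both doses, against 5.9% and 7.09% of all genes. At 25 mg/kg 1 fell (7.69%), near the 7.56% of all genes, and at 50 mg/kg 3 fell (23.1%), against 8.01%. Polr2a, the largest subunit of RNA polymerase II to which SETD2 binds, had 339 ± 120.3 CPM at 25 mg/kg and 427 ± 127 CPM at 50 mg/kg, against 76.5 ± 1.58 CPM with NaCl (SD, n = 3 each; adjusted p = 0.0028 and 0.0021). Phf19, a PRC2 subunit that binds trimethylated lysine 36, had a log2 fold change of 2.12 at 25 mg/kg (0.0060) and 2.595 at 50 mg/kg (0.0029). Dnmt3b, a DNA methyltransferase recruited by the same mark, had -1.41 at 25 mg/kg (0.0093) and -1.19 at 50 mg/kg (0.017). Hnrnpl fell at 50 mg/kg (-0.68, 0.023), as did Brpf1 (-0.76, 0.036), which was named after its value was seen. The rises of Polr2a and Phf19 kept their calls under every alternative tried. All listed genes that rose at either dose span 16.3 to 40.3 kb. In place of 3 falls at 50 mg/kg, 1 was called on dropping NaCl library 1 or 3 or 50 mg/kg library 2.

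Between 50 mg/kg and 25 mg/kg none of the 111 listed genes was called by edgeR, and 1 demethylase was called higher at 50 mg/kg by DESeq2. Unadjusted p-values under 0.05 were found for 0 to 2 genes per list. Kdm6b, which removes methyl groups from histone H3 lysine 27, had 89.8 ± 50.2 CPM at 50 mg/kg and 35.6 ± 2.25 CPM at 25 mg/kg (SD, n = 3 each; log2 fold change 1.34, edgeR adjusted p = 0.55). Arid5a had 117 ± 79.2 CPM at 50 mg/kg and 34.5 ± 11.1 CPM at 25 mg/kg (1.77, adjusted p = 0.55). The spread of Kdm6b and Arid5a was wide at 50 mg/kg. Other listed genes went the other way, among them Arid4a (log2 fold change -0.78, edgeR adjusted p = 0.55) and Setdb2 (-1.03, 0.55). The median log2 fold change of the listed genes was -0.12 between the doses.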

How the data were processed

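Poly(A) RNA of 9 mouse liver libraries was sequenced, 3 per group, and the authors deposited 1 table with read counts and FPKM for 21936 genes. The deposited counts are whole reads per gene with no normalization, and their sums per library were 15241261 to 18691736. The deposited FPKM values equal count divided by exon length and column total, as recomputed from the deposited table. Alignment used HISAT2 and build GRCm38 per the submitters' processing notes. For the HISAT2 version, the counting tool, its strand setting and the annotation release: not given in the sources used here. GENCODE M21 held 21817 of the gene IDs, 21617 of them with the same start and end.

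Counts were tested in R 4.3.3 with edgeR 4.0.16 (filterByExpr, TMM scaling, quasi-likelihood F test, 1 mean per group, 6 residual degrees of freedom). Of all genes, 12557 were tested, and p-values were adjusted by Benjamini-Hochberg over them with a threshold of 0.05. SE values follow from the log2 fold change and F (absolute change divided by root F), and intervals are 95% intervals of the same fit. CPM values use TMM-scaled library sizes, and log2 CPM a prior count of 2. Alternatives, 19 per comparison, covered other scalings, filters and tools (DESeq2 1.42.0, limma 3.58.1), a replicate block, the groups compared alone and each library left out. The fit was tested on simulated data. Libraries of a group differed by a mean chi-square of 41.2 to 105 per gene, so none was a duplicate. Promoter entries came from RefSeq (GRCm38.p6) and transcripts from GENCODE M21.

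The 10 genes and the gene lists were chosen with earlier results of these data known. Named genes are the 10, Atf3, the 8 most alike genes, and per list and comparison up to 4 called genes with the lowest adjusted p, or up to 2 with the lowest p where none was called.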

Additional observations from a re-analysis of the deposited data

How the results depend on the processing

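The calls of Arid1b and Kmt2c at both doses were kept under all 19 alternatives, which refit the same libraries, so nothing is read from this. When single libraries were left out, the median fold change of genes over 200 kb stayed between -1.14 and -0.89 at 25 mg/kg. At 50 mg/kg it stayed between -1.06 and -0.95. The number of genes called at 25 mg/kg was 1690, and 626 to 1850 with 1 library left out, 1108 with the replicate block and 975 without NaCl replicate 1 and 50 mg/kg replicate 2 together. At 50 mg/kg it was 1896, and 700 to 1921 with 1 library left out, 1229 with the replicate block and 653 without both. Between the doses 1 gene was called, and 0 to 3 with 1 library left out, 0 with library totals, 0 with the replicate block, 0 without both libraries, 0 with only the groups compared and 71 with DESeq2. With the replicate block 21 listed genes were called at 50 mg/kg, against 32. Deviations of same-numbered libraries correlated at -0.23 to 0.136 over 9 pairs, against -0.253 to 0.295 over the other 18. No pairing by replicate number was thus seen, and with 3 libraries a group it is not excluded. Small fold changes turned sign, and the cause was not tested. With single libraries dropped, 25 mg/kg over NaCl ranged from -0.2085 to 0.068 for Setd2 (highest lacking NaCl library 1, 0.0209 lacking 25 mg/kg library 1, 0.0673 lacking 25 mg/kg library 3) and from -0.1972 to 0.0673 for Kmt2d. For 50 mg/kg over NaCl, Kmt2a ranged from -0.4581 to 0.0988. For 50 mg/kg over 25 mg/kg, the ranges were -0.2718 to 0.2866 for Kmt2a (0.0865 lacking 25 mg/kg library 3), -0.218 to 0.0105 for Kmt2b, -0.3693 to 0.0371 for Kmt2d (0.01 lacking 25 mg/kg library 3) and -0.57 to 0.0203 for Arid1a. With NaCl library 1 and 50 mg/kg library 2 dropped together, 25 mg/kg over NaCl was 0.0685 for Setd2, 50 mg/kg over NaCl was 0.1747 for Kmt2a and 0.0322 for Kmt2d, and 50 mg/kg over 25 mg/kg was 0.2878 for Kmt2a, 0.0381 for Kmt2d and 0.0214 for Arid1a. With DESeq2 or its size factors, Kmt2a was 0.0024 between the doses. In FPKM the log2 ratio of Kmt2a to Kmt2b was -1.3237 with NaCl, -1.8533 at 25 mg/kg and -1.8534 at 50 mg/kg, because FPKM divides by exon length. With 3 libraries a group, small changes could not be told from 0. Such changes were those of Kmt2a and Kmt2d at either dose and of Setd2 at 25 mg/kg. The SE of Arid4b was 0.30 at 25 mg/kg and 0.31 at 50 mg/kg, near the 0.29 of Kmt2a, which had more reads. The part of read number in these errors was not tested.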
